A study of Mus musculus with 6 samples.

Results

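The p53 pathway was followed through 32 genes: p53 itself (Trp53), its negative regulators Mdm2 and Mdm4, and 29 targets that act in cell cycle arrest, cell death and DNA repair. They were taken by symbol, for their function and with earlier results of these data known, from the 24984 gene symbols of the count tables. All 32 were found and passed the filter on low counts, as did 15663 genes in all. RNA was measured in 6 libraries of the mouse embryonic stem cell line E14TG2a, and N2B27, which contains no serum, was the medium of every one. The D395A line (2 libraries) carries METTL3 with the D395A substitution, placed by CRISPR/Cas9 with targeted integration by homology-mediated end joining. The METTL3 knockout line (KO, 2 libraries) was made by disrupting the endogenous gene with CRISPR/Cas9, and unmodified cells (WT, 2 libraries) are what both are set against. METTL3 is the catalytic subunit of the methyltransferase for the RNA mark m6A, N6-methyladenosine. Per the design text, the aim was the interplay of that mark and circular RNA.

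p53 is a transcription factor that is held at a low protein level by MDM2, a ubiquitin ligase, and by MDM4, which blocks its activating domain. After DNA damage or other stress the protein is stabilised and switches on genes that stop the cell cycle, kill the cell or repair DNA, and Mdm2 is itself a target, which closes a feedback loop. Mouse embryonic stem cells carry abundant p53 and divide with a short G1 phase, in which the p53 target p21 acts.

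Levels are CPM, read counts scaled to a common library size with factors from trimmed means (TMM). Fold changes are log2 values ± SE from edgeR's quasi-likelihood test on all 6 libraries, with p-values adjusted by Benjamini-Hochberg over the 15663 genes, and a gene is called at an adjusted p under 0.05. Gene counts ran from 22859491 (D395A replicate 1) to 40476809 (WT replicate 1), and the 32 genes held 0.301% and 0.309% of them in D395A, 0.316% and 0.316% in KO, and 0.249% and 0.249% in WT. Mettl3, the targeted gene, stood at 21.1 and 23.4 CPM in D395A, 7.82 and 6.16 CPM in KO, against 28.5 and 31.6 CPM in WT. It was lowest in KO, with changes of -0.43 ± 0.10 (adjusted p = 0.0022) in D395A and -2.10 ± 0.11 (adjusted p = 6.5e-09) in KO. Exons of Tox4 on the opposite strand cover 18.38% of the exon bases of Mettl3, so its counts are uncertain. Each genotype is 1 line by its labels, so genotype and the history of a line cannot be told apart. In these bulk samples fewer cells of a type and less RNA per cell cannot be told apart either.

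Most of the 32 genes were higher in both mutant lines, while p53 itself was lower. In D395A 22 of 32 were called higher and 5 lower, a share of 84.4% called, against 70.3% of all genes tested (36.3% higher and 34.0% lower). In KO 22 of 32 were called higher and 4 lower, or 81.2% called, against 66.2% of all genes (33.6% higher and 32.6% lower). The median log2 fold change of the 32 was 0.49 in D395A and 0.64 in KO, and that of all genes tested was 0.025 in D395A and 0.014 in KO. Since the 32 were chosen with earlier results known, these shares and medians describe the list and do not test it. A broader list of 51 tested p53 targets, given below, had medians of -0.042 in D395A and 0.062 in KO. The comparisons share the WT libraries, so their values stand side by side and are not independent of each other. At a change of at least 2-fold, 8 were called higher and 2 lower in D395A, where 17.0% and 12.0% of all genes were. In KO, 11 were higher and 1 lower at that size, where 13.7% and 10.6% of all genes were. The 2 libraries of each mutant line lay wholly apart from those of WT for 29 of the 32 genes in D395A, as for 85.3% of all genes, and for 29 in KO, as for 83.9%.

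**Figure D1:**
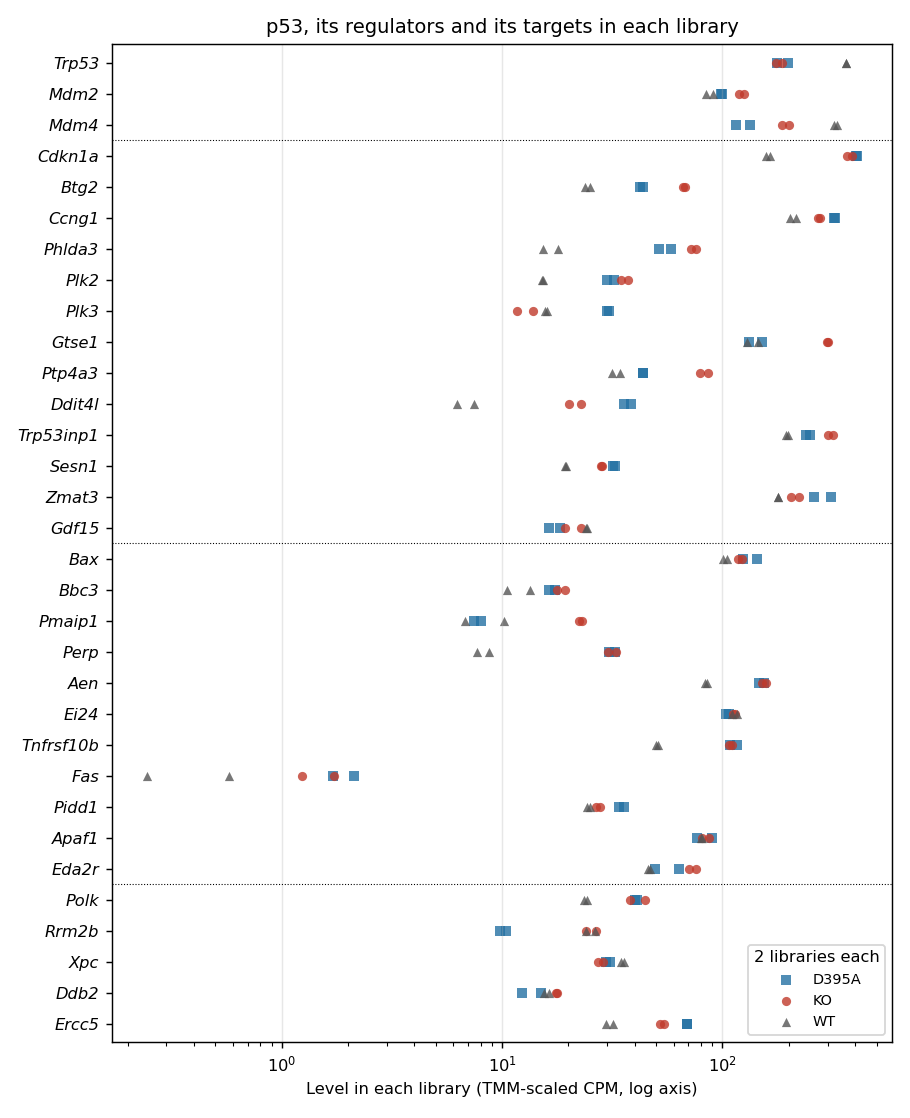
Level of each of the 32 genes in each of the 6 libraries (TMM-scaled CPM on a log axis; squares D395A, circles KO, triangles WT, 2 libraries each), grouped from top to bottom into p53 and its regulators, arrest and growth, death, and repair. Trp53 and Mdm4 are lower in the mutant lines than in WT, and most targets, such as Cdkn1a and Phlda3, are higher.

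Trp53 RNA fell in both mutant lines. It measured 177 and 199 CPM in D395A, 176 and 186 CPM in KO, against 364 and 362 CPM in WT. The WT libraries lie close together and all 4 mutant libraries lie below them. The log2 fold changes were -0.95 ± 0.071 (adjusted p = 1.1e-07) in D395A and -1.01 ± 0.071 (adjusted p = 7e-08) in KO. Per length, Trp53 was the most abundant of the 32 transcripts in WT, at 89.7 CPM per kilobase of exon. In D395A it stood at 46.5, below Cdkn1a, Ccng1, Bax and Gtse1, which measured 114, 92, 85 and 51.6 CPM per kilobase. In KO it stood at 44.6, below the same genes and also below Trp53inp1 and Phlda3, at 48.0 and 47.4. Trp53 is a protein-coding gene on the plus strand of chromosome 11 (GRCm38, 69580359 to 69591873). Over the 1302 tested genes of that chromosome the median log2 fold change was -0.49 in D395A and -0.42 in KO. Relative to this median Trp53 stood at -0.46 in D395A and -0.59 in KO, values without a test.

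Mdm4 fell in both lines and Mdm2 rose. Mdm4, a relative of MDM2 that inhibits p53 without being a strong ligase on its own, measured 116 and 134 CPM in D395A, 201 and 186 CPM in KO, against 322 and 329.5 CPM in WT. D395A was lowest, KO in between and WT highest, with no overlap. Changes were -1.38 ± 0.078 (adjusted p = 8.9e-09) in D395A and -0.75 ± 0.076 (adjusted p = 2.1e-06) in KO. Mdm2 measured 98.4 and 99.1 CPM in D395A, 126 and 119 CPM in KO, against 84.2 and 90.4 CPM in WT. KO stood above both other groups, and D395A only slightly above WT. Its changes were 0.18 ± 0.064 (adjusted p = 0.025) in D395A and 0.49 ± 0.063 (adjusted p = 2e-05) in KO. The call in D395A ended when chromosomes 8, 11 and Y were left out of the scaling (0.098, adjusted p = 0.18) and without WT replicate 1 (0.12, adjusted p = 0.26) or WT replicate 2 (0.23, adjusted p = 0.052). Mdm4 lies on the minus strand of chromosome 1 (132959484 to 133030561) and Mdm2 on the minus strand of chromosome 10 (117688875 to 117710758), chromosomes whose medians were 0.13 and 0.076 in D395A and 0.15 and -0.12 in KO.

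Windows from 250 bases before to 50 after each annotated start, from RefSeq (GRCm38.p6), were at hand for 23 of the 32 genes and were searched for the p53 half-site consensus, a motif of 10 bases that reads alike on both strands. At least 1 window of 11 of these 23 genes (47.8%) held a half-site without mismatch, against 9.55% of the 27025 genes in the table. A pair of half-sites at most 13 bases apart, with the central bases intact and at most 2 mismatches, was found for 4 of the 23 (17.4%) against 2.47% of all genes. Counted by window, the shares were 37.5% of 32 against 8.36% of 32851 for the half-site, and 12.5% against 2.12% for the pair. Since the genes were chosen as p53 and its targets, these shares describe the list and do not test it. These 4 windows are shown because they hold such pairs, and capitals mark every half-site of a pair. A match is a description of the letters and not a site shown to be bound.
Cdkn1a, chr17:29090729-29091028, plus strand: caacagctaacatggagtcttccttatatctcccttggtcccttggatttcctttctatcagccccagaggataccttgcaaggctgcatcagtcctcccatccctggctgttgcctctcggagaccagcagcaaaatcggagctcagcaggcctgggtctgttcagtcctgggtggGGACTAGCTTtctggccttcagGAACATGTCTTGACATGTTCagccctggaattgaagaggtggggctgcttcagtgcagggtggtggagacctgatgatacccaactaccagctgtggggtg
Gtse1, chr15:85859696-85859995, plus strand: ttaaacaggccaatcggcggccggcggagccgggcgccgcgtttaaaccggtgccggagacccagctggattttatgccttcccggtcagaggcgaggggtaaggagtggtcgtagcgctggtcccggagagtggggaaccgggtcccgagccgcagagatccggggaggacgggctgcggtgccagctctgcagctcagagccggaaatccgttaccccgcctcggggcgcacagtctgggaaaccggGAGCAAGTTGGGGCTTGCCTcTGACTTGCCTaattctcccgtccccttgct
Bax, chr7:45466849-45467148, minus strand: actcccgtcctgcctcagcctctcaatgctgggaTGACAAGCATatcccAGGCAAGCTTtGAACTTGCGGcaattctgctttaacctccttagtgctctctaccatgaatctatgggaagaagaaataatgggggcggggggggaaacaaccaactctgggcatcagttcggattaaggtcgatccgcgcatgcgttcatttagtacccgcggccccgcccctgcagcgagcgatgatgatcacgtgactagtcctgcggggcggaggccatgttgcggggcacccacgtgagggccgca
Sesn1, chr10:41887189-41887488, plus strand: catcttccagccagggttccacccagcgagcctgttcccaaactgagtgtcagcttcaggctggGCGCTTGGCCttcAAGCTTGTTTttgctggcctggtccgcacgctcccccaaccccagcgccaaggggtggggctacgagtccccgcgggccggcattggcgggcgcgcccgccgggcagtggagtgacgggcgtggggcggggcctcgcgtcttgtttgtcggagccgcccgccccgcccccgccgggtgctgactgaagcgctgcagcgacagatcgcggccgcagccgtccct

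The Cdkn1a window belongs to the upstream of its 2 annotated starts, and the window of the downstream start held no half-site. Its pairs run from base -73 to -32, counted from 1 at the start, with -1 just before it. One has 0 mismatches and 12 bases between the half-sites, and the other has 1 mismatch and none between. In Gtse1 the half-sites run from base -1 to 30 around the second of its starts. The Bax half-sites lie between bases -216 and -181 and those of Sesn1 between -186 and -164, each pair with 2 mismatches. The Sesn1 window shown belongs to the downstream of its 2 starts. That of the upstream start held neither a half-site without mismatch nor a pair.

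Among 13 genes for arrest, growth control and stress, 11 were called higher and 1 lower in each line (84.6% and 7.69%). Of all genes tested, 36.3% were called higher and 34.0% lower in D395A, and 33.6% higher and 32.6% lower in KO. Their medians were 0.73 in D395A and 1.13 in KO. Cdkn1a, which encodes the cyclin-dependent kinase inhibitor p21, measured 408 and 403 CPM in D395A, 367 and 385 CPM in KO, against 164 and 157 CPM in WT. All 4 mutant libraries lay far above WT, and D395A and KO lay close together. The changes were 1.34 ± 0.065 (adjusted p = 2.2e-09) in D395A and 1.23 ± 0.065 (adjusted p = 5.5e-09) in KO. D395A exceeded KO by 0.11 ± 0.063 (adjusted p = 0.18), with a 95% interval of -0.031 to 0.24. Exons of another annotated gene on the opposite strand cover 7.68% of the exon bases of Cdkn1a. Cdkn1a lies on chromosome 17 (29090976 to 29100727, plus strand).

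Phlda3, a target that inhibits the kinase AKT, measured 58.4 and 51.2 CPM in D395A, 75.8 and 71.8 CPM in KO, against 17.9 and 15.3 CPM in WT. KO was highest, D395A next, and WT lowest without overlap. It rose by 1.72 ± 0.091 (adjusted p = 5e-09) in D395A and 2.15 ± 0.089 (adjusted p = 7.3e-10) in KO. Ddit4l, an inhibitor of mTOR signalling, measured 35.7 and 38.6 CPM in D395A, 22.9 and 20.1 CPM in KO, against 7.45 and 6.23 CPM in WT. Here the order of the mutant lines was turned round, with D395A above KO. Its changes, 2.44 ± 0.11 (adjusted p = 8.4e-10) in D395A and 1.65 ± 0.11 (adjusted p = 3.7e-08) in KO, include the largest log2 fold change of the 32 genes in D395A. Btg2, an antiproliferative cofactor of RNA deadenylation, measured 43.6 and 42.2 CPM in D395A, 65.9 and 67.9 CPM in KO, against 25.2 and 23.8 CPM in WT. The 3 groups did not overlap, and KO was highest. It rose by 0.81 ± 0.068 (adjusted p = 3.3e-07) in D395A and 1.45 ± 0.066 (adjusted p = 1.6e-09) in KO.

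Plk2, a polo-like kinase induced by stress, measured 30.0 and 32.1 CPM in D395A, 34.6 and 37.1 CPM in KO, against 15.2 and 15.3 CPM in WT. Both mutant lines stood apart from WT and near each other. The changes were 1.03 ± 0.078 (adjusted p = 1.2e-07) in D395A and 1.23 ± 0.076 (adjusted p = 2.3e-08) in KO. Ptp4a3, a phosphatase, measured 43.8 and 43.4 CPM in D395A, 85.6 and 79.1 CPM in KO, against 31.4 and 34.2 CPM in WT. KO stood well above D395A, and D395A above WT. It rose by 0.41 ± 0.072 (adjusted p = 0.00023) in D395A and 1.33 ± 0.069 (adjusted p = 5.2e-09) in KO. Gtse1, which binds p53 and moves it out of the nucleus in G2, measured 132 and 151 CPM in D395A, 298 and 300.3 CPM in KO, against 145 and 129 CPM in WT. Only KO stood apart, and the D395A and WT libraries overlapped. It rose by 1.12 ± 0.078 (adjusted p = 6.7e-08) in KO. In D395A the change was 0.048 ± 0.079 (adjusted p = 0.6), with a 95% interval of -0.12 to 0.22.

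The other arrest and stress genes moved less than 2-fold. Trp53inp1, a p53 cofactor that promotes autophagy and death, averaged 244 ± 7.38 CPM in D395A, 311 ± 11.3 CPM in KO, against 196 ± 3.67 CPM in WT (SD, n = 2 libraries each), and it rose by 0.31 ± 0.064 in D395A and 0.66 ± 0.064 in KO. Sesn1, a sestrin that restrains mTORC1, rose by 0.73 ± 0.071 in D395A and 0.54 ± 0.07 in KO. Zmat3, an RNA-binding regulator of splicing, rose by 0.68 ± 0.084 in D395A and 0.25 ± 0.084 (adjusted p = 0.017) in KO. The KO call of Zmat3 ended without KO replicate 2 (adjusted p = 0.097), WT replicate 1 (adjusted p = 0.11) or WT replicate 2 (adjusted p = 0.11). Ccng1, cyclin G1, which recruits a phosphatase to MDM2, rose by 0.63 ± 0.063 in D395A and 0.39 ± 0.063 in KO. It lies on chromosome 11, and relative to the median of that chromosome it stood at 1.12 in D395A and 0.80 in KO. Gdf15, a stress cytokine on chromosome 8, fell in D395A, with -0.48 ± 0.096 (adjusted p = 0.00064), and was not called in KO, at -0.20 ± 0.093 (adjusted p = 0.076). The medians of chromosome 8 were -0.35 in D395A and -0.48 in KO, and relative to them Gdf15 stood at -0.13 in D395A and 0.28 in KO. Its fall in KO was called with chromosomes 8, 11 and Y left out of the scaling (-0.25, adjusted p = 0.031) and without KO replicate 1 (-0.32, adjusted p = 0.017). Plk3, another polo-like kinase, was higher in D395A, with 0.93 ± 0.089 (adjusted p = 1.1e-06), and lower in KO, with -0.32 ± 0.094 (adjusted p = 0.0096).

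**Figure D2:**
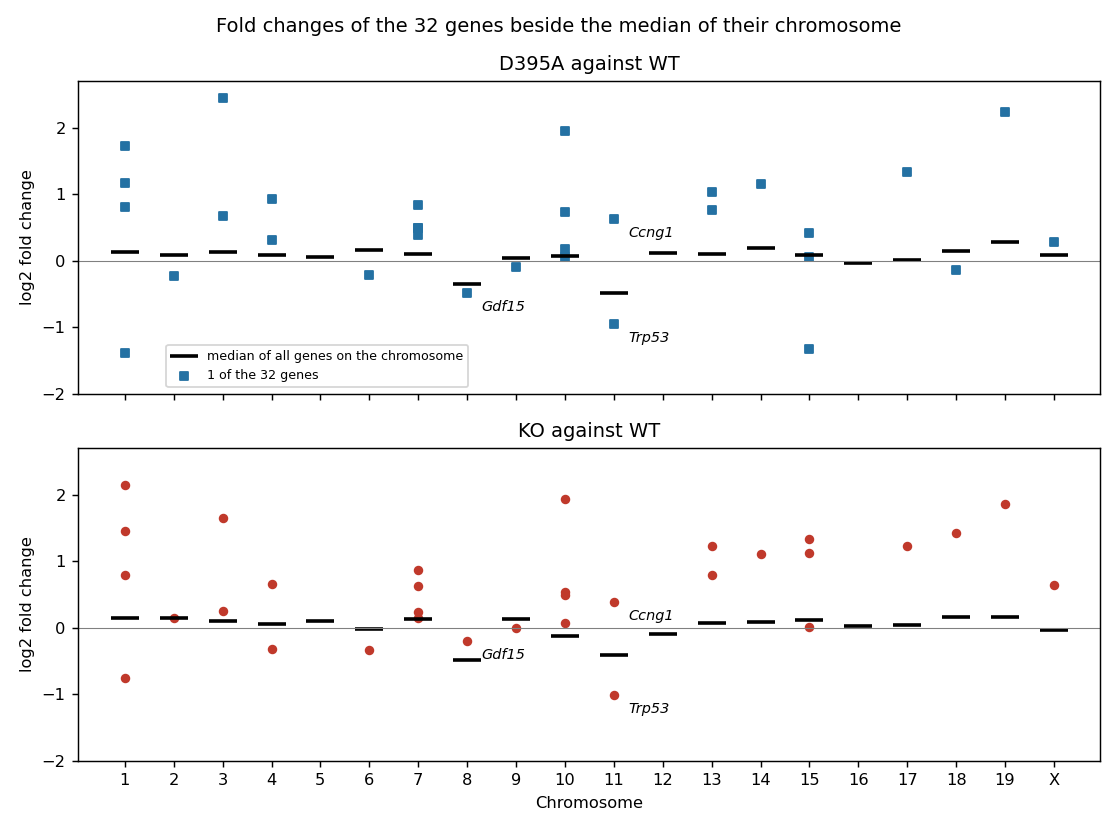
log2 fold change of each of the 32 genes (coloured points) beside the median of all tested genes on the same chromosome (black bars), D395A against WT above and KO against WT below. The bars of chromosomes 8 and 11 lie between -0.35 and -0.49, Trp53 lies below its bar and Ccng1 above it.

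Of 11 genes for cell death, edgeR called 8 higher (72.7%) and 0 lower in each line, against 36.3% higher and 34.0% lower of all genes in D395A, and 33.6% and 32.6% in KO. The count of lower genes was also 0 at an unadjusted p under 0.05, and 0 with DESeq2 and with limma-voom, and the exceptions under other settings are given with Ei24 and Pmaip1. Medians were 0.49 in D395A and 0.65 in KO. Perp, a membrane protein of desmosomes that acts in p53-dependent death, measured 32.6 and 30.5 CPM in D395A, 30.2 and 32.8 CPM in KO, against 7.69 and 8.73 CPM in WT. The mutant libraries overlapped one another and all lay far above WT. Its changes were 1.94 ± 0.092 (adjusted p = 1.9e-09) in D395A and 1.94 ± 0.091 (adjusted p = 2.1e-09) in KO. The difference between D395A and KO was 0.0023, with a 95% interval of -0.18 to 0.18. Tnfrsf10b, a death receptor for the ligand TRAIL, measured 108 and 117 CPM in D395A, 111 and 107 CPM in KO, against 50.2 and 50.8 CPM in WT. Both lines stood well above WT and overlapped each other. It rose by 1.16 ± 0.065 (adjusted p = 8.3e-09) in D395A and 1.11 ± 0.064 (adjusted p = 1.3e-08) in KO.

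Fas, the death receptor for FAS ligand, was the least abundant of the 32, with 1.7 and 2.13 CPM in D395A, 1.73 and 1.24 CPM in KO, against 0.246 and 0.579 CPM in WT. These levels rest on 40 and 77 counts in D395A, 61 and 43 in KO, and 10 and 21 in WT. All mutant libraries were above both WT libraries, and the SE was the widest of the set. It rose by 2.23 ± 0.47 (adjusted p = 0.001) in D395A and 1.86 ± 0.47 (adjusted p = 0.0039) in KO.

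The proteins encoded by Bax, Bbc3 and Pmaip1 act at the mitochondrion, where BAX opens the outer membrane and PUMA (Bbc3) and NOXA (Pmaip1) counter its inhibitors. Pmaip1 measured 8.05 and 7.43 CPM in D395A, 23.1 and 22.2 CPM in KO, against 6.81 and 10.2 CPM in WT. KO alone stood apart, and the D395A values lay between those of the 2 WT libraries. It rose by 1.42 ± 0.14 (adjusted p = 2.1e-06) in KO and changed by -0.13 ± 0.16 (adjusted p = 0.47) in D395A. Without WT replicate 1 the value in D395A was -0.40 (adjusted p = 0.018), and without WT replicate 2 it was 0.18 (adjusted p = 0.27). Bbc3 rose by 0.49 ± 0.11 (adjusted p = 0.002) in D395A and 0.63 ± 0.11 (adjusted p = 0.0003) in KO, and its value in D395A was 0.32 without WT replicate 1 (adjusted p = 0.039). Bax averaged 134 ± 13.7 CPM in D395A, 119.8 ± 3.07 CPM in KO, against 102 ± 2.94 CPM in WT (SD, n = 2 each). It rose by 0.39 ± 0.073 (adjusted p = 0.00043) in D395A and 0.23 ± 0.073 (adjusted p = 0.015) in KO. The KO call of Bax ended without KO replicate 2 or WT replicate 1 (adjusted p = 0.063 each) and without WT replicate 2 (adjusted p = 0.14), and 12.18% of its exon bases are shared with another annotated gene on the same strand.

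Aen, an exonuclease that acts in apoptosis, was higher by 0.84 ± 0.062 in D395A and 0.87 ± 0.062 in KO. Eda2r, a receptor of the tumour necrosis factor family, rose by 0.65 ± 0.095 in KO and by 0.28 ± 0.097 (adjusted p = 0.019) in D395A. The 2 D395A libraries differed for Eda2r, at 49.2 and 63.2 CPM against 46.8 and 46.1 CPM in WT, and the D395A value was 0.45 without D395A replicate 1 and 0.080 without D395A replicate 2 (adjusted p = 0.37). That call also ended when chromosomes 8, 11 and Y were left out of the scaling (adjusted p = 0.073), and without WT replicate 1 (adjusted p = 0.092) or WT replicate 2 (adjusted p = 0.12). Pidd1, which forms a caspase-2 platform, rose in D395A by 0.50 ± 0.071 and changed by 0.15 ± 0.071 (adjusted p = 0.087) in KO. Apaf1, the scaffold of the apoptosome, was called in neither line, with 95% intervals of -0.12 to 0.22 in D395A and -0.10 to 0.23 in KO. Ei24, a protein of the endoplasmic reticulum, was not called either, with intervals of -0.23 to 0.031 in D395A and -0.13 to 0.13 in KO. Its value in D395A passed the test when chromosomes 8, 11 and Y were left out of the scaling (-0.18, adjusted p = 0.014).

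The 5 genes for DNA repair and nucleotide supply went both ways. In D395A 2 were called higher and 2 lower (40% each), near the 36.3% and 34.0% of all genes. In KO 2 were higher and 1 lower (40% and 20%), against 33.6% and 32.6% of all genes. Rrm2b, the small subunit of ribonucleotide reductase that p53 induces, measured 10.4 and 9.79 CPM in D395A, 26.7 and 23.9 CPM in KO, against 24 and 26.4 CPM in WT. D395A stood apart below both other groups, which overlapped. Its change in D395A was -1.32 ± 0.095 (adjusted p = 7.8e-08), and in KO the 95% interval was -0.18 to 0.19. An annotated gene on the opposite strand covers 8.04% of its exon bases. Ercc5, a nuclease of nucleotide excision repair, measured 69.4 and 69.4 CPM in D395A, 54.5 and 51.9 CPM in KO, against 31.8 and 29.7 CPM in WT. D395A was highest and WT lowest, without overlap. It rose by 1.17 ± 0.066 (adjusted p = 8.8e-09) in D395A and 0.79 ± 0.066 (adjusted p = 3.5e-07) in KO.

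Polk, a polymerase that copies damaged DNA, rose by 0.76 ± 0.082 in D395A and 0.79 ± 0.081 in KO. Xpc, which recognises distorted DNA in excision repair, fell, with changes of -0.22 ± 0.07 (adjusted p = 0.013) in D395A and -0.33 ± 0.069 (adjusted p = 0.0011) in KO. The D395A call of Xpc ended without D395A replicate 2 (adjusted p = 0.067) or WT replicate 2 (adjusted p = 0.082). Ddb2, a sensor of ultraviolet damage, averaged 13.7 ± 1.89 CPM in D395A, 17.6 ± 0.143 CPM in KO, against 15.9 ± 0.497 CPM in WT (SD, n = 2 each) and was called in neither line (adjusted p = 0.058 in D395A and 0.21 in KO). In D395A its value of -0.23 lay near the threshold and passed it under 7 of the alternatives, among them limma-voom (-0.26, adjusted p = 0.042) and scaling without chromosomes 8, 11 and Y (-0.31, adjusted p = 0.016). Exons of Acp2 on the opposite strand cover 23.83% of the exon bases of Ddb2.

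**Figure D3:**
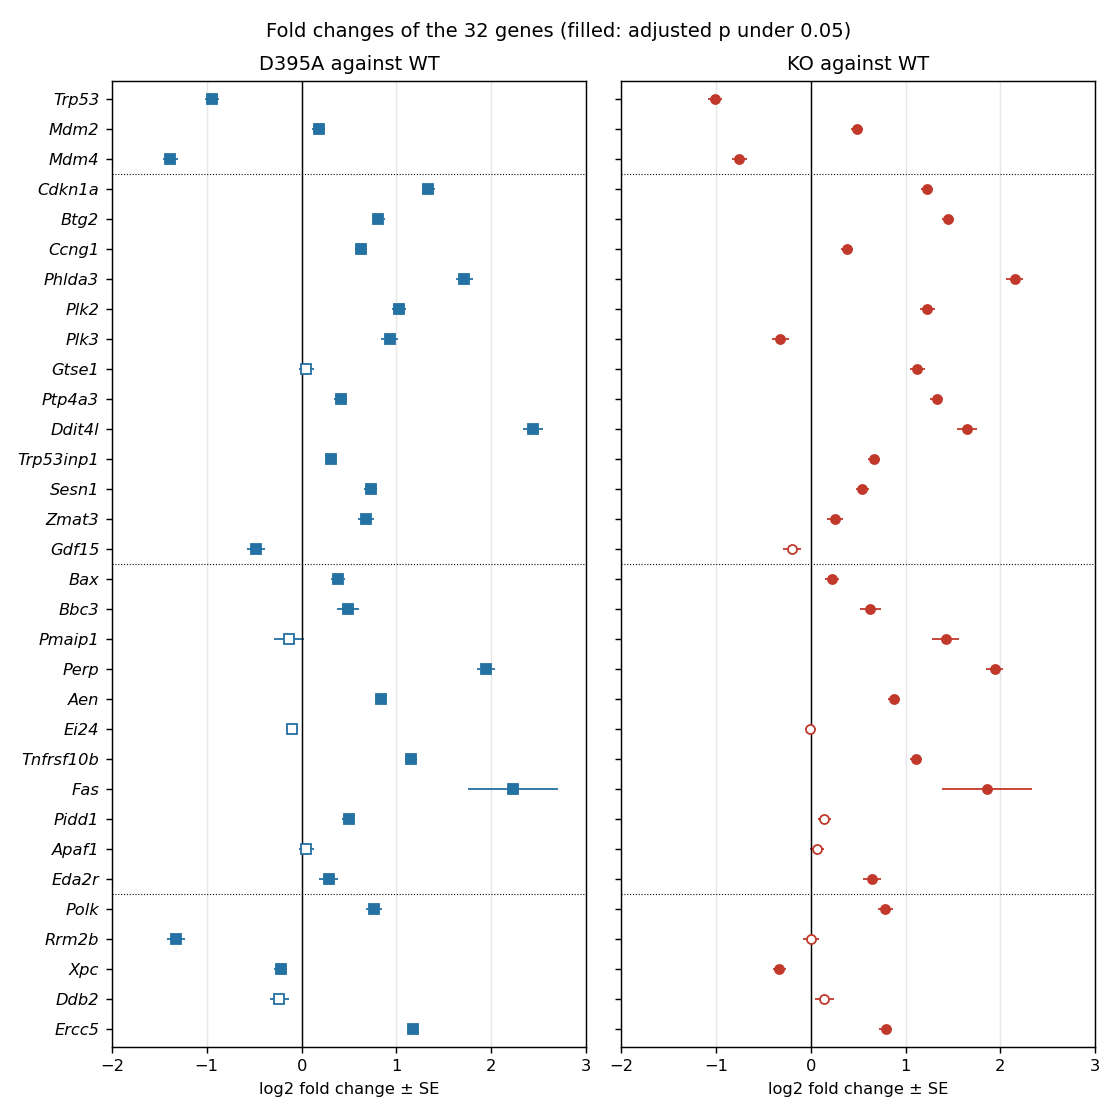
log2 fold change ± SE of each of the 32 genes, D395A against WT on the left and KO against WT on the right, with filled symbols for genes called at an adjusted p under 0.05. In each panel 22 genes are called higher, and Trp53 and Mdm4 lie on the left of 0.

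The direct comparison of D395A with KO asks where the mutant lines differ. Of the 32 genes 7 were called higher and 13 lower in D395A, or 62.5%, against 50.4% of all genes (26.5% higher and 23.8% lower). The median was -0.029 for the 32 and 0.036 for all genes. The D395A and KO libraries lay wholly apart for 25 of the 32 genes, as for 74.7% of all genes. Pmaip1 differed by -1.55 ± 0.15 (adjusted p = 2.6e-06), Rrm2b by -1.33 ± 0.096 (adjusted p = 1.7e-07) and Gtse1 by -1.08 ± 0.079 (adjusted p = 2e-07). These 3 are the ones called lower with at least a 2-fold change, as were 7.56% of all genes. Plk3 alone was called at least 2-fold higher, by 1.25 ± 0.092 (adjusted p = 2.1e-07), as were 8.38% of all genes. Ptp4a3, Btg2, Mdm4 and Phlda3 were lower in D395A, with differences of -0.92 ± 0.069, -0.64 ± 0.064, -0.63 ± 0.078 and -0.43 ± 0.082, while Ddit4l was higher by 0.79 ± 0.094.

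Smaller differences were called for Zmat3 (0.42 ± 0.084), Ercc5 (0.38 ± 0.064), Pidd1 (0.35 ± 0.07), Ccng1 (0.24 ± 0.063) and Sesn1 (0.18 ± 0.069), all higher in D395A. Mdm2 (-0.31 ± 0.064), Trp53inp1 (-0.35 ± 0.064), Eda2r (-0.37 ± 0.095), Ddb2 (-0.38 ± 0.10), Gdf15 (-0.28 ± 0.097) and Plk2 (-0.20 ± 0.073) were lower. The call of Sesn1 (adjusted p = 0.041) ended without any 1 of the 6 libraries (adjusted p = 0.065 to 0.17). It also ended with RLE size factors (0.053), scaling without chromosomes 8, 11 and Y (0.072), no filter on low counts (0.13), DESeq2 (0.17), the fit on 2 groups (0.098) and the crossed replicate block (0.062). That of Plk2 (adjusted p = 0.034) ended with DESeq2 (adjusted p = 0.084) and without KO replicate 2 (0.21), D395A replicate 1 (0.15), WT replicate 1 (0.052) or WT replicate 2 (0.055). The call of Ccng1 ended without KO replicate 2 (adjusted p = 0.052). Without D395A replicate 2, Zmat3 differed by 0.28 and Eda2r by -0.57, and without D395A replicate 1 Eda2r differed by -0.20, all past the test. Ddb2 stood at -0.24 without D395A replicate 2 (adjusted p = 0.094), and the call of Gdf15 ended without KO replicate 1 (-0.17, adjusted p = 0.25), without D395A replicate 1 (-0.21, adjusted p = 0.15), without WT replicate 2 (adjusted p = 0.051) and with DESeq2 (adjusted p = 0.064). The 12 genes not called include 8 of the 11 for death. Of those 11, 1 was called higher and 2 lower (27.3%), against 50.4% of all genes called. Bax was closest to the threshold (adjusted p = 0.09), with a difference of 0.16, and of 0.26 without D395A replicate 2. A gene without a call is not shown to be alike in the 2 lines, as for Fas, with a 95% interval of -0.56 to 1.30. Trp53 differed by 0.061, with a 95% interval of -0.093 to 0.21.

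**Figure D4:**
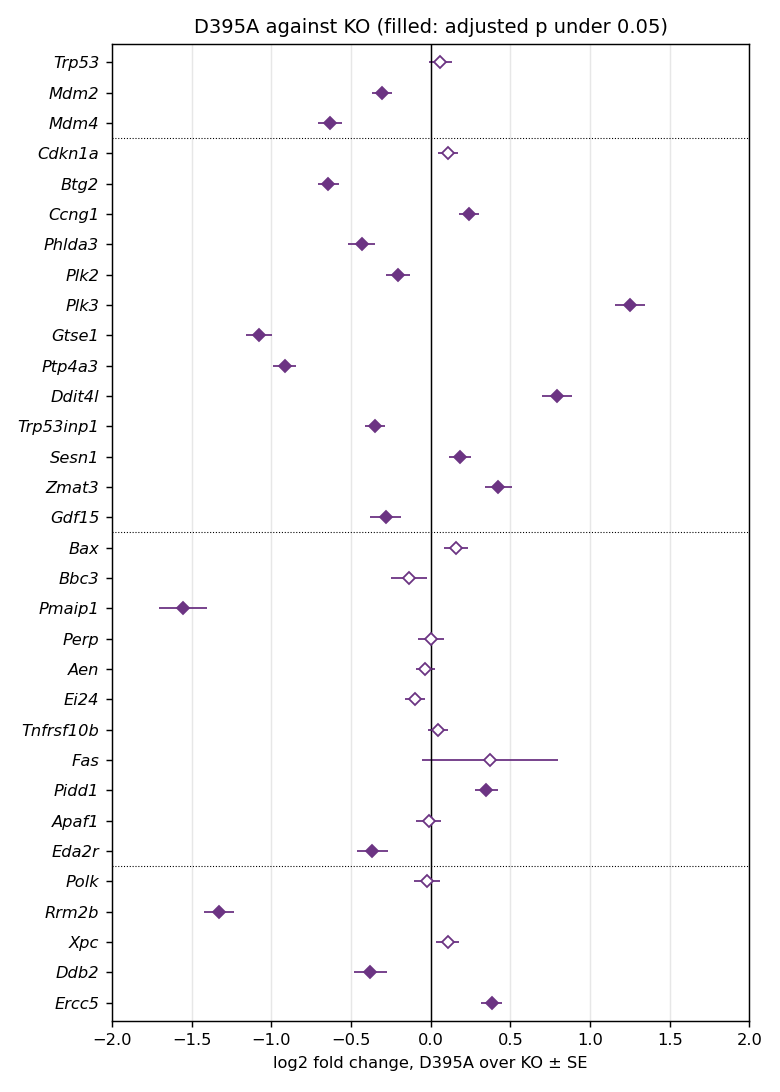
log2 fold change ± SE of D395A over KO for each of the 32 genes, with filled symbols for those called at an adjusted p under 0.05. Plk3 lies farthest to the right, at 1.25, and Pmaip1, Rrm2b and Gtse1 lie below -1.

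Genes around the pathway were read from 5 further lists. Of 16 tested sensors and kinases that act upstream of p53 in the damage response, 13 were called lower and 1 higher in D395A (81.2% and 6.25%, median -0.43), against 34.0% lower and 36.3% higher of all genes. In KO 13 were lower and 2 higher (81.2% and 12.5%, median -0.43), against 32.6% and 33.6% of all genes. Brca1, which directs repair of double-strand breaks, changed by -1.19 ± 0.071 (adjusted p = 1.3e-08) in D395A and -0.89 ± 0.07 (adjusted p = 2e-07) in KO. The kinase gene Prkdc changed by -0.83 ± 0.069 in D395A and -1.25 ± 0.07 in KO, and the kinase gene Atr by -0.96 ± 0.074 in D395A and -0.95 ± 0.074 in KO. Rad50, a subunit of the break-binding MRN complex, changed by -1.04 ± 0.063 in D395A and -0.85 ± 0.062 in KO. Brca1 and Rad50 are the 2 tested genes of this list that lie on chromosomes 8 or 11, and the part of the lower chromosome 11 medians in their falls was not tested.

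Genes that modify p53, 27 of them tested, were higher in 12 and lower in 5 cases in D395A and higher in 14 and lower in 5 in KO, with medians of 0.13 in D395A and 0.17 in KO. The share called either way was 63% in D395A (44.4% higher), against 70.3% of all genes (36.3% higher), and 70.4% in KO (51.9% higher), against 66.2% of all genes (33.6% higher). Trp73, which encodes the p53 relative p73, averaged 2.85 ± 0.171 CPM in D395A, 14.2 ± 2.24 CPM in KO, against 3.05 ± 0.522 CPM in WT (SD, n = 2 each). It rose by 2.22 ± 0.16 (adjusted p = 1e-07) in KO, and D395A and WT stood close together. Dyrk2, a kinase of p53, rose by 1.38 ± 0.08 in D395A and 1.01 ± 0.08 in KO, and the acetyltransferase gene Crebbp by 0.99 ± 0.085 in D395A and 0.86 ± 0.085 in KO. Hipk2, another kinase of p53, rose by 1.06 ± 0.091 (adjusted p = 4.1e-07) in D395A and 0.30 ± 0.092 (adjusted p = 0.013) in KO.

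A broader list of 51 tested p53 targets was split in both lines. In D395A 22 were called higher and 21 lower (43.1% and 41.2%, median -0.042), near the 36.3% and 34.0% of all genes. In KO 24 were higher and 21 lower (47.1% and 41.2%, median 0.062), against 33.6% and 32.6% of all genes. Tap1, a peptide transporter of antigen presentation, rose by 2.74 ± 0.15 (adjusted p = 8.4e-09) in D395A and 1.80 ± 0.16 (adjusted p = 5.5e-07) in KO. Dyrk3, a kinase, rose by 1.74 ± 0.065 in D395A and 2.20 ± 0.065 in KO. Gls2, a glutaminase, fell, with log2 fold changes of -2.18 ± 0.084 (adjusted p = 2.8e-10) in D395A and -2.31 ± 0.083 (adjusted p = 2.5e-10) in KO. Ppm1j, a phosphatase, fell, with -2.76 ± 0.20 in D395A and -0.62 ± 0.16 (adjusted p = 0.0042) in KO.

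Cell cycle genes that are repressed through p21 and the DREAM complex were mostly lower. In D395A 26 of 30 were called lower (86.7%) and 3 higher (median -0.51), against 34.0% of all genes called lower. In KO 19 were lower (63.3%) and 4 higher (median -0.32), against 32.6% of all genes called lower. Top2a, topoisomerase II of dividing cells, averaged 519.9 ± 41.1 CPM in D395A, 658 ± 7.76 CPM in KO, against 1346 ± 13.6 CPM in WT (SD, n = 2 each), and it lies on chromosome 11. Mcm2 and Mcm5, subunits of the replicative helicase, changed by -0.68 ± 0.068 and -1.04 ± 0.066 in D395A and by -1.21 ± 0.068 and -1.11 ± 0.066 in KO. Mcm5 lies on chromosome 8, whose medians were -0.35 in D395A and -0.48 in KO. The part of the lower chromosome medians in the falls of Top2a and Mcm5 was not tested. Foxm1, a transcription factor of G2 and mitosis, went the other way, with 0.97 ± 0.073 (adjusted p = 1.1e-07) in D395A and 1.13 ± 0.073 (adjusted p = 3.3e-08) in KO. Of the 30 genes 4 lie on chromosomes 8 or 11, and Chek1 is also in the list of sensors and kinases.

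**Figure D5:**
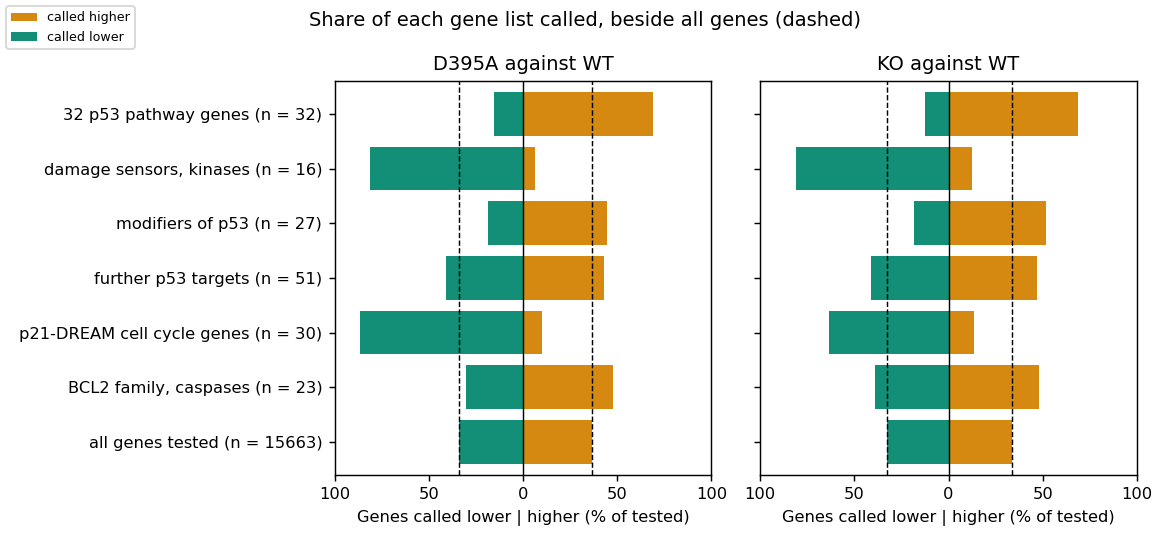
Share of the tested genes of each list called higher (right) and lower (left), in percent, for D395A against WT on the left and KO against WT on the right, with dashed lines at the shares of all 15663 genes. The 32 p53 pathway genes reach 68.8% higher in each panel, while the upstream sensors and the p21-DREAM genes extend to the left.

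Markers of cell state moved in the same libraries, and their part in these results was not tested. The summed level of 10 stem cell markers was 2234 to 2281 CPM in D395A, 4913 to 4935 CPM in KO, against 4414 to 4481 CPM in WT, and all 10 were detected above 1 CPM. Of these, 9 were called lower and 0 higher in D395A, and 4 lower and 4 higher in KO. Of all genes tested, 36.3% were called higher and 34.0% lower in D395A, and 33.6% higher and 32.6% lower in KO. The 8 neural markers summed to 92.2 to 96.7 CPM in D395A, 60.6 to 61.0 CPM in KO, against 88.5 to 93.6 CPM in WT. These sums hide opposite moves, since in D395A 6 of the 8 were called higher and 2 lower (median 2.25), and in KO 1 higher and 2 lower. Dcx and Zic1, called higher in D395A, had low levels. Dcx was under 1 CPM in every library, and Zic1 averaged 1.59 ± 0.096 CPM in D395A, 0.157 ± 0.0188 CPM in KO, against 0.124 ± 0.137 CPM in WT. Sox11 averaged 31.3 ± 2.98 CPM in D395A, 5.25 ± 0.093 CPM in KO, against 2.84 ± 0.358 CPM in WT, and Pax6 10.9 ± 0.551 CPM in D395A, 0.345 ± 0.367 CPM in KO, against 1.29 ± 0.16 CPM in WT (SD, n = 2 each). The more abundant Tubb3 averaged 17.4 ± 0.174 CPM in D395A, 11.6 ± 0.107 CPM in KO, against 44.3 ± 2.16 CPM in WT, and Nes 15.1 ± 1.54 CPM in D395A, 34 ± 1.18 CPM in KO, against 33.1 ± 1.39 CPM in WT.

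For 13 extraembryonic endoderm markers the sums were 194 to 211 CPM in D395A, 408 to 419.8 CPM in KO, against 262 to 281 CPM in WT, with Sox7, Afp and Ttr under 1 CPM throughout. Sparc makes up most of the WT sum, with 80.7 ± 9.96 CPM in D395A, 259 ± 4.87 CPM in KO, against 210.3 ± 13.9 CPM in WT (SD, n = 2 each). Of the 10 tested, 5 were called higher and 3 lower in D395A (median 0.42), and 6 higher and 2 lower in KO (median 0.64). Beside these counts and those of the next 2 lists, 70.3% of all genes were called in D395A and 66.2% in KO. Foxa2 averaged 21.3 ± 1.61 CPM in D395A, 0.947 ± 0.494 CPM in KO, against 0.106 ± 0.0453 CPM in WT, and Dab2 17.4 ± 1.32 CPM in D395A, 23.1 ± 3.23 CPM in KO, against 3.01 ± 0.151 CPM in WT. The 2 called lower in KO were Gata4 and Gata6, which were also called lower in D395A. Gata4 averaged 1.25 ± 0.197 CPM in D395A, 1.98 ± 0.383 CPM in KO, against 5.24 ± 0.62 CPM in WT. Gata6 averaged 1.1 ± 0.14 CPM in D395A, 0.745 ± 0.209 CPM in KO, against 2.42 ± 0.048 CPM in WT. The 9 trophoblast markers summed to 86.7 to 92.1 CPM in D395A, 66.8 to 68.6 CPM in KO, against 73.3 to 74.0 CPM in WT, with Elf5 and Hand1 under 1 CPM throughout. Of 8 tested, 6 were called higher and 1 lower in D395A, and 3 higher and 1 lower in KO. The 9 fibroblast markers summed to 11.8 to 12.0 CPM in D395A, 22.4 to 22.5 CPM in KO, against 28.1 to 28.2 CPM in WT, and Col1a2, Col3a1, Lum, Postn and Fap were under 1 CPM in every library. Of 5 tested, 2 were called higher and 3 lower in D395A, and 1 higher and 2 lower in KO. Those called higher in D395A, Col3a1 and Dcn, had low levels. Col3a1 averaged 0.574 ± 0.0896 CPM in D395A and 0 CPM in KO and WT. Dcn averaged 1.28 ± 0.478 CPM in D395A and 0.101 ± 0.143 CPM in KO, against 0 CPM in WT.

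The ribosomal RNA precursor Rn45s held 14.3% and 13.9% of gene counts in D395A, 16.7% and 15.7% in KO, against 10.8% and 11.2% in WT, so its share was higher in all 4 mutant libraries. With Rn45s left out of the scaling, 22 of the 32 genes were again called higher in each line. Reads that the counting tool HTSeq assigned to no feature made up 37.3% and 33.8% of the total of all lines in D395A. They made up 31.1% and 22.3% in KO, and 30.2% and 30.2% in WT. Where they lie relative to genes is not known, since the annotation and strand setting of the counting are not given. The part of either share in the results was not tested.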

How the data were processed

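Libraries were directional and came from total RNA after a step to deplete ribosomal RNA, per the labels' protocols. The authors deposited 1 table of read counts per library, with reads trimmed by Trimmomatic 0.36, aligned to mm10 by STAR 2.7 and counted by HTSeq 0.11.2, per the submitters' processing notes. For counting, the annotation and strand setting are not given in the sources at hand, so the counts of a gene with an opposite-strand overlap are uncertain. The summary lines of HTSeq, 29.1% to 44.2% of the total of all lines in a file, were left out.

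From these counts, edgeR 4.0.16 (R 4.3.3) kept 15663 genes with filterByExpr, scaled by TMM and fitted all 6 libraries in 1 quasi-likelihood model without covariates (3 residual and 9.26 prior degrees of freedom). The SE of a fold change is its size divided by the root of the F statistic. The counts of the 2 libraries of a group differed by more than sampling noise (chi-square per degree of freedom 9.57 in D395A, 5.74 in KO and 2.96 in WT). The labels do not say whether they are separate cultures, so p-values measure the spread between libraries, which may be technical. Positions and exon lengths came from GENCODE M21 (GRCm38), which held 97.89% of symbols. The procedure was tested on simulated data. Alternatives were other scalings and filters, DESeq2 1.42.0, limma-voom (limma 3.58.1), a robust fit, a replicate block and leaving out each library.

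The genes and lists were chosen with earlier results of these data known. All 32 genes are named, with every library's value for Trp53, Mdm2, Mdm4, Cdkn1a and genes changed at least 2-fold past the test against WT. Of each other list, up to 4 genes with the largest change past the test and at least 2 CPM are named. Values of single libraries for Eda2r and Plk3, and the single cell state markers given with levels, were chosen after their values were seen.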

Additional observations from a re-analysis of the deposited data

Results flagged for a closer look

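Plk3, a polo-like kinase, was called in opposite directions in the 2 mutant lines, and the difference between them was tested and called. It measured 30.5 and 30.1 CPM in D395A, 13.8 and 11.6 CPM in KO, against 15.7 and 16 CPM in WT. The D395A libraries lay above WT and the KO libraries below it. The difference of D395A against KO was 1.25 ± 0.092 (adjusted p = 2.1e-07) in edgeR's quasi-likelihood test, with both D395A libraries above both KO libraries. The fall in KO, -0.32 ± 0.094 (adjusted p = 0.0096), lost its call without KO replicate 2 (-0.20, adjusted p = 0.13) and without WT replicate 2 (-0.31, adjusted p = 0.057). Exons of Tctex1d4 on the opposite strand cover 3.32% of the exon bases of Plk3.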

How the results depend on the processing

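Across 11 other scalings, filters, tools and fits, the genes called higher numbered 20 to 22 in D395A and 22 in KO against WT, and those called lower 5 to 7 in D395A and 4 to 5 in KO. For D395A against KO, 12 alternatives gave 6 to 7 higher and 11 to 13 lower. Leaving out 1 library gave 20 to 22 higher and 4 to 6 lower in D395A, 20 to 22 and 3 to 5 in KO, and 5 to 7 and 11 to 12 for D395A against KO. The median of the 32 genes in D395A was 0.41 with chromosomes 8, 11 and Y left out of the scaling, 0.39 relative to chromosome medians and 0.46 to 0.57 with 1 library left out, and for D395A against KO it was -0.14 relative to chromosome medians. Without the low-count filter, in the fit on the 2 groups alone and without KO replicate 1, 0 genes were called at least 2-fold lower in KO, since Trp53 lies near that limit.

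In KO, Rrm2b stood at -0.0024 with upper quartile factors, -0.048 with scaling without chromosomes 8, 11 and Y, and -0.071 to 0.084 with 1 library left out, and Ei24 at 0.0085 without the filter, 0.013 in the fit on 2 groups and -0.040 to 0.036 with 1 left out. In D395A, Gtse1 stood at -0.033 and Apaf1 at -0.030 with scaling without those chromosomes, and at -0.056 to 0.14 and -0.074 to 0.16 with 1 left out, while Pmaip1 ran from -0.40 to 0.18. For D395A against KO, Perp stood at -0.011 (RLE size factors), -0.024 (scaling without those chromosomes), -0.024 (no filter), -0.0066 (stricter filter), -0.0093 (DESeq2), -0.0012 (limma-voom) and -0.031 (2 groups). With 1 library left out, it ran from -0.063 to 0.058, Polk from -0.13 to 0.084, Apaf1 from -0.14 to 0.093, Aen from -0.075 to 0.0010, Trp53 from -0.029 to 0.14 and Tnfrsf10b from -0.017 to 0.10. Relative to chromosome medians, which carry no test, the sign also turned for Gdf15 (0.28), Rrm2b (-0.10) and Ddb2 (-0.0048) in KO, Gtse1 (-0.038) and Apaf1 (-0.025) in D395A, and Sesn1 (-0.043), Perp (-0.23), Xpc (-0.13) and Tnfrsf10b (-0.024) for D395A against KO. In the main fit, no value whose sign turned under a tested alternative was called, and the causes were not tested.

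A replicate block left all counts of calls among the 32 genes unchanged (22 higher and 5 lower in D395A, 22 and 4 in KO, 7 and 13 for D395A against KO). The labels link same-numbered libraries by their number only. Deviations of such libraries correlated at -0.0026 (D395A and WT), -0.0078 (KO and WT) and -0.12 (D395A and KO). With 2 libraries a group, these values cannot show whether same-numbered libraries were handled together. A crossed pairing of D395A and KO, added after seeing the data, gave 6 higher and 13 lower. The KO calls of Zmat3, Bax and Plk3 ended without single libraries, as given above. Low counts limit Fas, with 10 and 21 counts in WT and an SE of 0.47.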

Other observations

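Genes of the BCL2 family and caspases outside the p53 set changed both ways. Of 23 tested, 11 were called higher and 7 lower in D395A (70.3% of all genes were called there), and 11 higher and 9 lower in KO (66.2% of all genes). Casp8, the initiator caspase of death receptors, averaged 23 ± 0.0966 CPM in D395A, 24 ± 2 CPM in KO, against 3.27 ± 0.526 CPM in WT (SD, n = 2 each), with changes of 2.81 ± 0.12 (adjusted p = 7.1e-10) in D395A and 2.87 ± 0.12 (adjusted p = 6.7e-10) in KO. Cflar, which blocks caspase 8, rose by 1.99 ± 0.11 in D395A and 1.22 ± 0.11 in KO. Casp9, the caspase of the apoptosome, averaged 20.3 ± 1.34 CPM in D395A, 22.7 ± 0.676 CPM in KO, against 58.7 ± 1.03 CPM in WT, and it fell, with -1.52 ± 0.073 (adjusted p = 1.9e-09) in D395A and -1.37 ± 0.071 (adjusted p = 4.7e-09) in KO. Hrk, a BH3-only activator of death, fell to 0.38 ± 0.185 CPM in D395A and 0.614 ± 0.217 CPM in KO, against 4.95 ± 0.638 CPM in WT. These 4 genes lie on chromosomes other than 8 and 11.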
